A study of Mus musculus with 9 samples.

Results

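The 39 genes described here are those of the Fanconi anemia pathway, of homologous recombination, of end joining and of the damage checkpoint that were chosen by name. All 39 were found among the 47480 gene names of the count table, and all 39 passed the filter on low counts, which left 16426 genes to test. RNA had been sequenced from 2 bone marrow populations of C57BL/6 mice, as polysomal RNA and as total RNA. The 4 groups were MP polysomal RNA (3 libraries), MP total RNA (2 libraries), LSK polysomal RNA (2 libraries) and LSK total RNA (2 libraries). LSK cells lack lineage markers, carry Sca-1 and Kit and are labelled as stem cells, and MP, which the labels do not explain, are labelled as progenitor cells. In all 4 groups cells had a 10 min exposure to cycloheximide (100 ug/ml), which holds ribosomes on the messages. Polysomal RNA came from fraction 7 of the 10 fractions of a 10 to 60% sucrose gradient, and total RNA had been set aside before the gradient. The labels name no mutation, no other treatment and no DNA-damaging agent in any group. Both populations are mixtures of cells, and in bulk samples fewer cells of a type and less RNA per cell cannot be told apart.

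Breaks across both DNA strands are joined directly by end joining, in which the Ku proteins hold the ends, or copied from the sister chromatid by homologous recombination, in which the ends are first resected to single strands. The Fanconi core complex attaches ubiquitin to the Fancd2 and Fanci proteins at crosslinks between the strands and so brings recombination proteins to the damage. Inherited loss of this pathway in humans leads to bone marrow failure. In mice, quiescent hematopoietic stem cells rely largely on end joining, and cycling progenitors have more use of homologous recombination.

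The promoters of 4 of the genes described below are shown first. Xrcc3 was picked beside Brca1, Brca2 and Atm because their fractions ran in the opposite direction in MP cells. Whether promoter letters relate to the fraction changes was not tested. Prkdc, Rad50 and Rbbp8, on which other results turn, are named without a sequence. Each sequence is the 250 bases ahead of the gene's start in RefSeq (GRCm38.p6), read on the gene's strand. The Brca1 window lies at chr11:101551956-101552205 on the minus strand, Brca2 at chr5:150522371-150522620 on the plus strand, Atm at chr9:53536672-53536921 on the minus strand and Xrcc3 at chr12:111813880-111814129 on the minus strand. Capitals mark the CCAAT box and the E2F letters, each on either strand.
Brca1: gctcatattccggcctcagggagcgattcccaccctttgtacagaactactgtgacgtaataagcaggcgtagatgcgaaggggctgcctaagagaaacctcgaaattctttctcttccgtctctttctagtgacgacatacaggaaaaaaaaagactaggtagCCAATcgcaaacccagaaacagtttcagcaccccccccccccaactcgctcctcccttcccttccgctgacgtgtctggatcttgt
Brca2: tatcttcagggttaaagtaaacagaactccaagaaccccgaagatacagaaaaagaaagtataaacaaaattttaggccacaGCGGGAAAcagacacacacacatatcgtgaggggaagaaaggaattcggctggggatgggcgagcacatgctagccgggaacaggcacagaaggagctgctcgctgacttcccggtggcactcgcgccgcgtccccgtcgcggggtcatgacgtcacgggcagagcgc
Atm: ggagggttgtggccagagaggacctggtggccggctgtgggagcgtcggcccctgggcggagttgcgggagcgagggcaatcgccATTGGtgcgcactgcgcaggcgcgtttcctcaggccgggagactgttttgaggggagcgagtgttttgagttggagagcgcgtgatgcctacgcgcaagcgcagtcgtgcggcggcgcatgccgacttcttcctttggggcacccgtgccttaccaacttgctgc
Xrcc3: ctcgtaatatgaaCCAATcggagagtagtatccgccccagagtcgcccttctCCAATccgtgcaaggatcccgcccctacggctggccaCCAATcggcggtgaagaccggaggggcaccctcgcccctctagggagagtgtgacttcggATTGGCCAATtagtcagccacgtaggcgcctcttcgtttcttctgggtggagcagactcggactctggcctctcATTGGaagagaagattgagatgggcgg
E2F factors switch on genes of DNA replication, and the CCAAT box binds the factor NF-Y. The E2F letters searched were TTTCCCGC, TTTCGCGC, TTTGCCGC and TTTGGCGC on both strands. They were in 6 of 34 windows of 30 of the 39 genes (17.6%), against 611 of 32851 windows of all genes (1.86%). The 6 were those of Bard1, Fancg, Chek2, Brca2, Xrcc6 and Mdc1. CCAAT was in 18 of the 34 windows (52.9%), against 33.8% of all windows, and Xrcc3 held 6 copies, with a pair of them side by side on opposite strands. The letters TTTGAA or TTCGAA of the cell cycle homology region were in 2 of the 34 windows (5.88%), against 17.1% of all windows. A match describes the letters alone.

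Total counts ranged from 27342343 to 34807735 per library, and a repair gene had between 29 and 26190 counts in a library, with 0 genes at a count of 0. Levels are counts scaled to a common library size (CPM) after TMM scaling, and a change is the log2 of a ratio of group levels, given with its standard error (SE). Separate animals or sorts are not named for the libraries of a group, so the p-values measure a spread that may be technical. Ly6a, which encodes Sca-1, was at 0.159 to 1.26 CPM in MP libraries and 50.2 to 110 CPM in LSK libraries. Elane, a neutrophil elastase gene of granulocyte progenitors, was at 4393 to 11082 CPM in MP libraries and 1015 to 1089 CPM in LSK libraries. Some libraries stood apart from others of their group. A list of 8 genes of maturing neutrophils, 0 of them at 0 in any library, summed to 17714 CPM in MP polysomal 1 and 14265 CPM in MP total 1, against 511 to 1003 CPM in the other MP libraries and 440 to 2403 CPM in LSK. A list of 8 B cell genes summed to 3279 CPM in LSK polysomal 2 and 4271 CPM in LSK total 2, against 597 to 870 CPM in the LSK libraries numbered 1. In LSK the libraries numbered 1 and 2 also differed for the repair genes. Their median was 60.2 and 25.3 CPM in LSK polysomal 1 and 2, and 66.2 and 29.8 CPM in LSK total 1 and 2. In MP it was 60.3, 63.1 and 55.1 CPM in polysomal 1, 2 and 3, and 29.8 and 33.3 CPM in total 1 and 2. The MP libraries thus separated by fraction and the LSK libraries by number, as the heat map of all 39 genes by library shows.

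**Figure D1:**
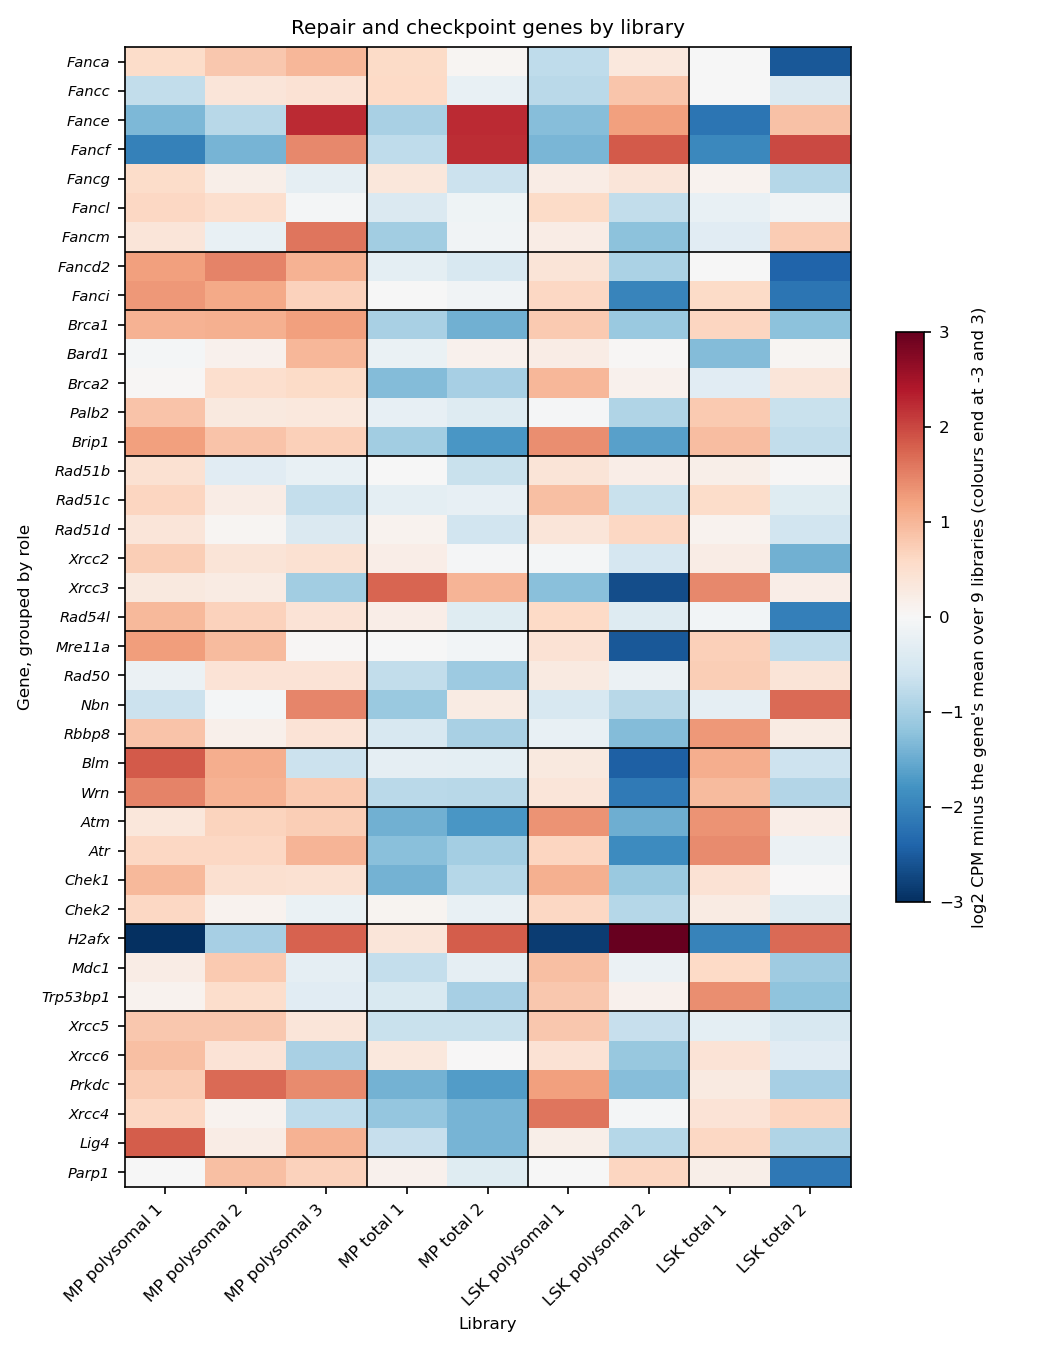
Level of each of the 39 repair genes in each of the 9 libraries, as log2 CPM minus the gene's mean over the libraries (colour, cut at -3 and 3). Most rows are warm in the 3 MP polysomal columns and cool in both MP total columns, LSK polysomal 2 and LSK total 2 are the coolest LSK columns, and H2afx, Fance and Fancf run against the other rows.

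Levels per length of transcript spanned a wide range. Parp1, the sensor of nicks and breaks, stood highest with a median over the 9 libraries of 131 CPM per kb. It was followed by the histone gene H2afx at 80.9 CPM per kb and by Xrcc6, which encodes the Ku subunit Ku70, at 62.2 CPM per kb. Rad54l, a motor protein of strand exchange, was at 55.6 CPM per kb, and Chek2, a checkpoint kinase below Atm, at 34.5 CPM per kb. Lig4, the ligase of end joining, stood lowest at 0.555 CPM per kb, after Rad51c at 1.09, Fancm at 1.37 and Bard1 at 1.59 CPM per kb. The order is loose, because the level of 1 gene varied over libraries by 2.18-fold for Rad51b, the steadiest, and by 121-fold for H2afx, the most variable. Parp1 itself ranged from 27.2 to 223 CPM per kb and so overlapped its neighbours in the order.

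Polysomal over total RNA in MP cells showed the most uniform pattern. Of the 39 repair genes, 34 had a higher mean level in polysomal than in total RNA, with a median log2 change of 0.84, against 45.3% of all tested genes and a median of -0.08. The libraries of the fractions did not overlap for 21 of the 39 in the direction of polysomal RNA, against 16.3% of all genes, and for 1 in the other direction, Xrcc3, against 16.4%. By edgeR's quasi-likelihood test with Benjamini-Hochberg adjustment, 0 of the 39 passed, as did 0% of all genes (0 of 16426), of which 1243 had an unadjusted p under 0.05 (7.57%). At an unadjusted p under 0.05 stood 12 of the 39, all higher in polysomal RNA, against 4% of all genes in that direction. DESeq2 passed 30 genes in this comparison, and 1 of them was a repair gene, Prkdc. The changes below are therefore values, none of which passed the threshold by edgeR.

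Among the genes of end joining, all 5 had a higher mean in polysomal RNA (median log2 change 1.37). Prkdc encodes the catalytic subunit of the DNA-dependent protein kinase, which the Ku proteins recruit to broken ends. It had 113, 218 and 178 CPM in MP polysomal libraries, against 25.1 and 20.7 CPM in MP total libraries. Every polysomal library lay far above every total library, and the log2 change was 2.89 (SE 0.80, 95% interval 1.09 to 4.69, edgeR quasi-likelihood, Benjamini-Hochberg adjusted p = 0.656). Lig4 averaged 5.58 ± 2.93 CPM in MP polysomal RNA (SD, n = 3) and 1.24 ± 0.42 CPM in MP total RNA (n = 2). Xrcc5, the Ku80 gene, averaged 154 ± 26.4 and 60.2 ± 0.233 CPM in the same groups, and Xrcc4, the scaffold of Lig4, 13.0 ± 5.82 and 5.05 ± 0.58 CPM. These 4 genes did not overlap between the fractions, whereas Xrcc6 did, with a log2 change of 0.13 (95% interval -1.31 to 1.58). That interval spans both a fall and a rise of more than 2-fold.

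The genes of the BRCA group behaved alike, with all 5 higher in polysomal RNA (median log2 change 1.52). Brca1, whose protein with Bard1 forms a ubiquitin ligase that favours resection, had 120, 122 and 138 CPM in MP polysomal libraries and 29.8 and 21.4 CPM in MP total libraries. The groups lay far apart, with a tight polysomal group, and the log2 change was 2.30 (SE 0.74, edgeR quasi-likelihood, Benjamini-Hochberg adjusted p = 0.656). Brca2 had 31.1, 42.6 and 45.1 CPM in MP polysomal and 12.3 and 15.2 CPM in MP total libraries, again without overlap. Brip1, a helicase that binds Brca1, averaged 85.2 ± 16.3 CPM (n = 3) and 17.2 ± 5.80 CPM (n = 2), and Palb2, the bridge between Brca1 and Brca2, 41.3 ± 9.78 and 23.2 ± 1.58 CPM. Bard1, the Brca1 partner, overlapped between the fractions, with 11.6 ± 4.73 CPM in polysomal and 8.42 ± 1.40 CPM in total RNA.

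Of the damage kinases, Atm, Atr and Chek1 lay apart in the fractions and Chek2 did not. Atm, which signals breaks, had 34.1, 42.7 and 45 CPM in MP polysomal and 9.99 and 7.99 CPM in MP total libraries, so the fractions did not overlap. Atr, which signals exposed single strands, had 53.5, 53.6 and 70.5 CPM in MP polysomal and 14.7 and 17.2 CPM in MP total libraries. Chek1, the kinase below Atr, averaged 95.4 ± 20.5 CPM (n = 3) and 28 ± 7.51 CPM (n = 2). Chek2 averaged 87.1 ± 26.1 and 71.5 ± 10.1 CPM, a log2 change of 0.28 whose 95% interval was -0.96 to 1.52.

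The Mre11a, Rad50 and Nbn genes encode the complex that senses and trims ends, and Rbbp8 encodes CtIP, the cofactor that starts resection. All 4 had a higher mean in MP polysomal RNA, by 0.83 to 1.21 on the log2 scale, and all but Nbn did not overlap. The RecQ helicase genes were likewise higher, Wrn by 1.95 (SE 0.80) and Blm by 1.36 (SE 0.95), the second with overlap. Fancd2 averaged 202 ± 32.8 CPM in MP polysomal and 64.2 ± 5.51 CPM in MP total RNA, and its partner Fanci 101 ± 21.3 and 46.6 ± 2.36 CPM, both without overlap. The Fanconi core was mixed, with 4 of 7 genes positive and a median log2 change of 0.27. Fancm, the translocase that anchors the core complex on DNA, had the highest change there (1.28, SE 0.77), and Fancl, its ubiquitin ligase, was the core gene without overlap (0.65, SE 0.54). Of Rad51b, Rad51c, Rad51d, Xrcc2, Xrcc3 and Rad54l, which act in strand exchange, 5 of 6 were positive, and all 5 lay within 0.23 to 0.76 on the log2 scale.

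Xrcc3 ran against the rest of its group. Its protein acts with that of Rad51c at recombination intermediates, and the gene had 19.9, 19.5 and 7.87 CPM in MP polysomal libraries, against 54.3 and 33.3 CPM in MP total libraries. No polysomal library reached a total one, and the log2 change was -1.47 (SE 0.66, edgeR quasi-likelihood, Benjamini-Hochberg adjusted p = 0.663). The same order held in LSK cells, where Xrcc3 had 6.84 and 2.57 CPM in polysomal and 44.4 and 18.8 CPM in total libraries. There the log2 change was -2.74 (SE 0.79, edgeR quasi-likelihood, Benjamini-Hochberg adjusted p = 0.226), and its unadjusted p, 0.00628, was the smallest of the 39 genes in that comparison. Xrcc3 was 1 of the 433 genes that DESeq2 passed in LSK cells (log2 change -2.79, adjusted p = 0.0236). The plot of 8 genes by library shows it beside genes of the opposite order.

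**Figure D2:**
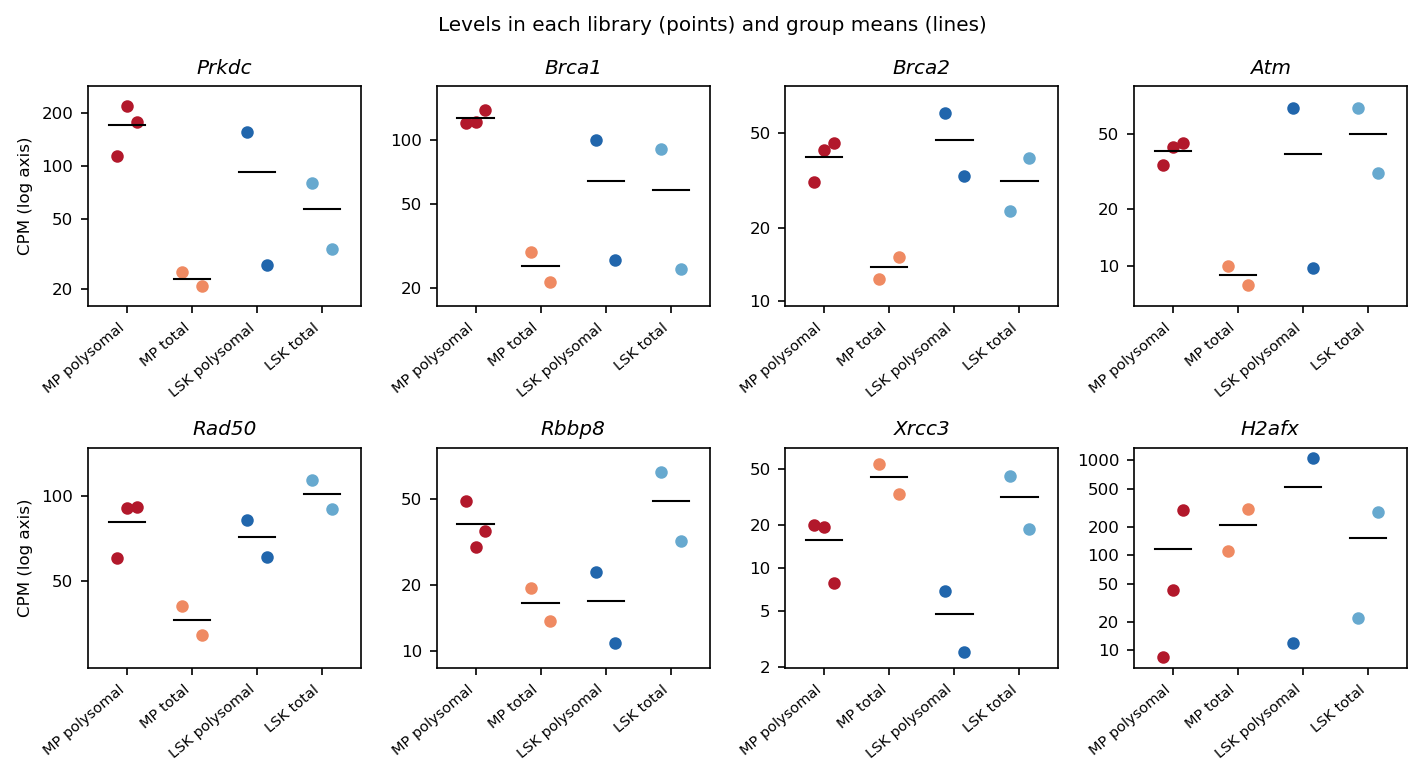
CPM in each library (points, log axis) and group means (lines) for 8 repair genes in MP polysomal, MP total, LSK polysomal and LSK total RNA. Prkdc, Brca1, Brca2 and Atm are high in all 3 MP polysomal and low in both MP total libraries, Rad50 and Rbbp8 are also high in LSK total RNA, Xrcc3 is lower in polysomal RNA of both populations, and H2afx spans 8.57 to 1039 CPM.

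The break-marking genes were the least even. H2afx encodes the histone variant that is phosphorylated around breaks, Mdc1 the protein that binds this mark and Trp53bp1 the protein that limits resection. H2afx had 8.57, 43.6 and 295 CPM in MP polysomal libraries, 112 and 306 CPM in MP total libraries, 12.1 and 1039 CPM in LSK polysomal libraries and 21.7 and 281 CPM in LSK total libraries. Libraries of 1 group differed more than the groups did, and the pooled SD within groups was 2.88 on the log2 scale, against a median of 0.79 for the 39 genes and 0.72 for all genes. Fancf and Fance, subunits of the Fanconi core, followed with pooled SDs of 2.17 and 2.01. Fancf was at 1.23, 1.92 and 13.7 CPM in MP polysomal 1, 2 and 3, at 3 and 23.5 CPM in MP total 1 and 2, at 1.96 and 18.2 CPM in LSK polysomal 1 and 2, and at 1.31 and 19.9 CPM in LSK total 1 and 2. Fance ran from 2.33 to 50.3 CPM with the same libraries high and low. These 3 genes had the highest GC content of the 39 transcripts (62.3% for H2afx, 61.3% for Fance and 57.0% for Fancf). H2afx and Fancf each lie in 1 exon. H2afx (chr9:44334694-44336077) and Fancf (chr7:51860577-51862267, GRCm38, GENCODE M21) share 10.2% and 15.0% of their exon bases with other genes, Gm44335 and Gas2, and Fance shares 3.26% with CT025652.1. Fancc, Fanci, Rad54l and Trp53bp1 share 15.0% to 16.4% with 1 other gene each, and Fancc also shares 2.21% with 2010111I01Rik. Their pooled SDs were lower, at 0.72, 1.22, 0.74 and 0.90, with Fanci and Trp53bp1 above the median of the 39. Fancl shares 13.7% with Vrk2 and Fanca 10.5% with Zfp276, and their pooled SDs were 0.48 and 0.89. Some others of the 39 share smaller parts, which are not listed here. Whether the counting used strand is not stated, so counts of all these genes may include reads of the genes they overlap. The part of GC content in this spread was not tested. By edgeR with the filter on low counts none of the changes of H2afx, Fance and Fancf passed. With no filter H2afx was 1 of 1558 genes that passed in MP over LSK polysomal RNA (log2 change -2.16, edgeR quasi-likelihood, Benjamini-Hochberg adjusted p = 0.00764). Over the alternatives this change ran from -4.33 to 3.26, so its sign was not kept in all of them.

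Base composition and length moved with the fraction difference. The 39 genes had a median coding length of 2295 nt and a median transcript GC content of 45.9%, against 1095 nt and 49.7% for 15846 tested genes with an annotated transcript. Across the 39 genes, the log2 change of polysomal over total RNA in MP had a Spearman correlation of 0.69 with transcript length and -0.77 with GC content, and across all genes of 0.41 and -0.31. Genes measured in the same libraries are not independent, so these are descriptions. The 10 longest of the 39 (coding length 4317 to 12384 nt) had a median log2 change of 1.59, and 721 tested coding genes of about that length had 0.79. The 9 genes of 2679 to 4257 nt had a median of 1.21, against 0.41 for 2180 genes of that length. The 10 genes of 1578 to 2295 nt had 0.37, against 0.16 for 2704 genes, and the 10 shortest 0.37, against -0.12 for 6271 genes. The repair genes thus stood above genes of their own length in each class of length, by 0.21 to 0.80 on the log2 scale, and both sets climbed with length. With the trend of each library on length removed, the median of the 39 genes was 0.66, and with the trend on GC content removed it was 0.83. Both corrections were chosen after seeing the data.

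**Figure D3:**
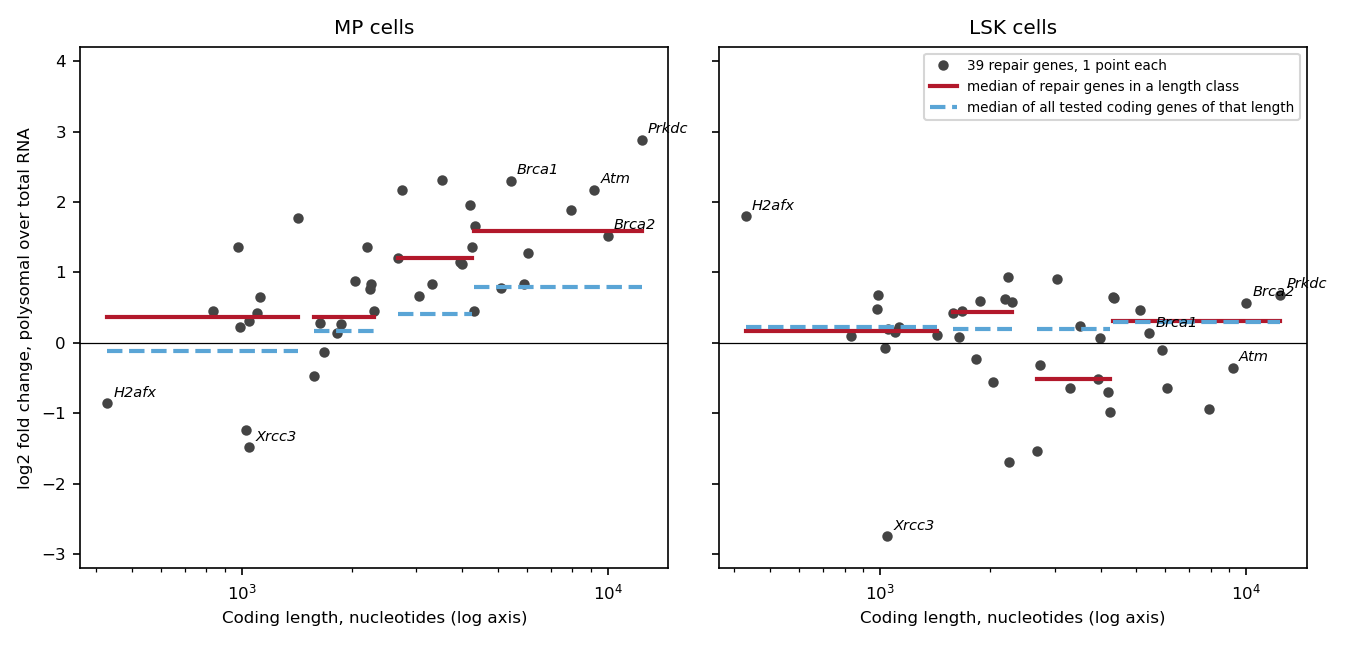
log2 change of polysomal over total RNA against coding length (nucleotides, log axis) for the 39 repair genes (points) in MP cells (left) and LSK cells (right), with medians per class of length for these genes (solid) and for all tested coding genes of that length (dashed). In MP the long genes Prkdc, Brca1 and Atm lie above 2 and the medians climb with length, and in LSK no such climb is seen.

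Other genes of repair and of the cell cycle were read beside them. Of 86 further repair genes listed by name, 0 passed in MP polysomal over total RNA by edgeR (8 at an unadjusted p under 0.05), 58 were positive and their median log2 change was 0.34. Those with the smallest p were Atrip, the partner of Atr, at -2.45 (SE 0.69, 0.208 CPM in polysomal and 1.15 CPM in total RNA), Clspn, the adaptor of Chek1, at 1.86 (SE 0.59), Rif1, which acts with Trp53bp1, at 1.72 (SE 0.58), and Fancb, a Fanconi core gene, at 1.94 (SE 0.70). Of 28 genes of DNA replication and mitosis, 21 were positive, with a median of 0.31. Summed, these 28 genes took 14474 to 15960 CPM in MP polysomal libraries and 8979 to 10588 CPM in MP total libraries, 0 of them at 0 in any library. The 39 repair genes summed to 3459 to 3817 CPM and 2018 to 2189 CPM in the same libraries. The part of cycling in the repair gene levels was not tested. Neutrophil transcripts were high in 1 library of each fraction, and without both of those libraries the median of the 39 genes was 0.81. That value rests on MP total 2 as the only total library, and the part of neutrophil content was not tested.

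Polysomal over total RNA in LSK cells had no common direction. Of the 39 genes, 24 were positive, against 50.8% of all genes, and their median log2 change was 0.14, against 0.02 for all genes. By edgeR's quasi-likelihood test with Benjamini-Hochberg adjustment, 0 of the 39 passed, as did 0% of all genes (0 of 16426), while 1981 genes had an unadjusted p under 0.05 (12.1%) and DESeq2 passed 433. Of the 39 genes, 2 had an unadjusted p under 0.05 (Xrcc3 and Rbbp8), both lower in polysomal RNA, against 8.5% of all genes in that direction. Libraries did not overlap for 3 genes in the direction of polysomal RNA (Fancg, Rad51b and Rad51d), against 16.2% of all genes. They did not overlap for 4 in the other direction (Xrcc3, Rad50, Nbn and Rbbp8), against 20.6%. The direction of the median rested on single libraries, with -0.87 when LSK polysomal 1 was left out, -0.13 when LSK total 2 was left out and 0.46 when LSK total 1 was. On library totals without TMM factors the median of the 39 genes was -0.17, and that of all genes was -0.36.

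All 4 end-trimming genes were negative, with a median log2 change of -1.04, as were both RecQ helicase genes, Blm at -0.98 and Wrn at -0.70. Rbbp8 had 23.0 and 10.9 CPM in LSK polysomal libraries, against 66.2 and 32.0 CPM in LSK total libraries. The lower total library stayed above the higher polysomal one, and the log2 change was -1.53 (SE 0.63, edgeR quasi-likelihood, Benjamini-Hochberg adjusted p = 0.376). Rad50 had 82.1 and 60.8 CPM in polysomal and 114 and 89.7 CPM in total libraries, a small gap with a log2 change of -0.51 (SE 0.49). Nbn averaged 12.7 ± 2.22 and 40.9 ± 34.6 CPM (n = 2 each), so its total libraries differed from each other more than the groups did. Atm split by library number, with 68.5 and 9.80 CPM in polysomal 1 and 2 and 69.0 and 31.0 CPM in total 1 and 2. Prkdc had 156 and 27.5 CPM in polysomal 1 and 2 and 80.2 and 33.6 CPM in total 1 and 2, and Brca1 100 and 27.0 CPM and 90.8 and 24.7 CPM. For both, library 1 lay above library 2 in each fraction by more than the fractions differed. From library 1 to library 2 of LSK polysomal RNA, 21 of the 39 genes were more than 2-fold lower and 5 more than 2-fold higher. Among 15846 tested genes with an annotated transcript, 4292 were more than 2-fold lower and 4061 more than 2-fold higher. Of the 86 further repair genes 50 were positive and 0 passed by edgeR (9 at an unadjusted p under 0.05), with a median of 0.19, and of the 28 cell cycle genes 25 were positive, with a median of 0.59.

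The fraction differences of the 2 populations were then set against each other. The interaction (polysomal over total RNA, MP over LSK) was positive for 29 of the 39 genes, with a median of 0.94, against 46.9% and -0.10 for all genes. By edgeR's quasi-likelihood test with Benjamini-Hochberg adjustment, 0 of the 39 passed, as did 0% of all genes, with 869 genes at an unadjusted p under 0.05 (5.29%) and 1 passing by DESeq2. Among the 39, 5 had an unadjusted p under 0.05, all positive (Rbbp8, Atr, Rad50, Wrn and Lig4), against 4.74% of all genes in that direction. Rbbp8 had the smallest, with 49.0, 29.9 and 35.7 CPM in MP polysomal, 19.4 and 13.7 CPM in MP total, 23.0 and 10.9 CPM in LSK polysomal and 66.2 and 32.0 CPM in LSK total libraries. In MP cells its polysomal libraries lay above the total ones and in LSK cells below them, and the interaction was 2.74 (SE 0.87, 95% interval 0.80 to 4.68, edgeR quasi-likelihood, Benjamini-Hochberg adjusted p = 0.877). Rad50 showed the same arrangement, with an interaction of 1.65 (SE 0.67). These were the only 2 of the 39 genes (5.13%) whose libraries separated in opposite directions in the populations. Of all genes, 1.74% did so with polysomal RNA higher in MP and lower in LSK, and 0.615% the other way round. Atr followed with 2.84 (SE 1.13), although its LSK libraries overlapped, at 54.9 and 9.43 CPM in polysomal and 92.8 and 31.1 CPM in total RNA. The median was lowest, at 0.48, with LSK total 1 left out and highest, at 1.83, with LSK polysomal 1 left out. Base composition and length moved with the interaction as well. Its Spearman correlation with GC content was -0.75 across the 39 genes and -0.57 across all genes, and with transcript length 0.56 and 0.19. The median of the 39 genes was 0.58 after the trend on GC content was taken out of each library and 0.64 after that on length. Of the 86 further repair genes 43 were positive, with a median of 0.02 and 0 passing by edgeR (8 at an unadjusted p under 0.05), and Smc5, which encodes a subunit of a chromosome-binding complex of repair, had the smallest p there (2.71, SE 0.79).

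**Figure D4:**
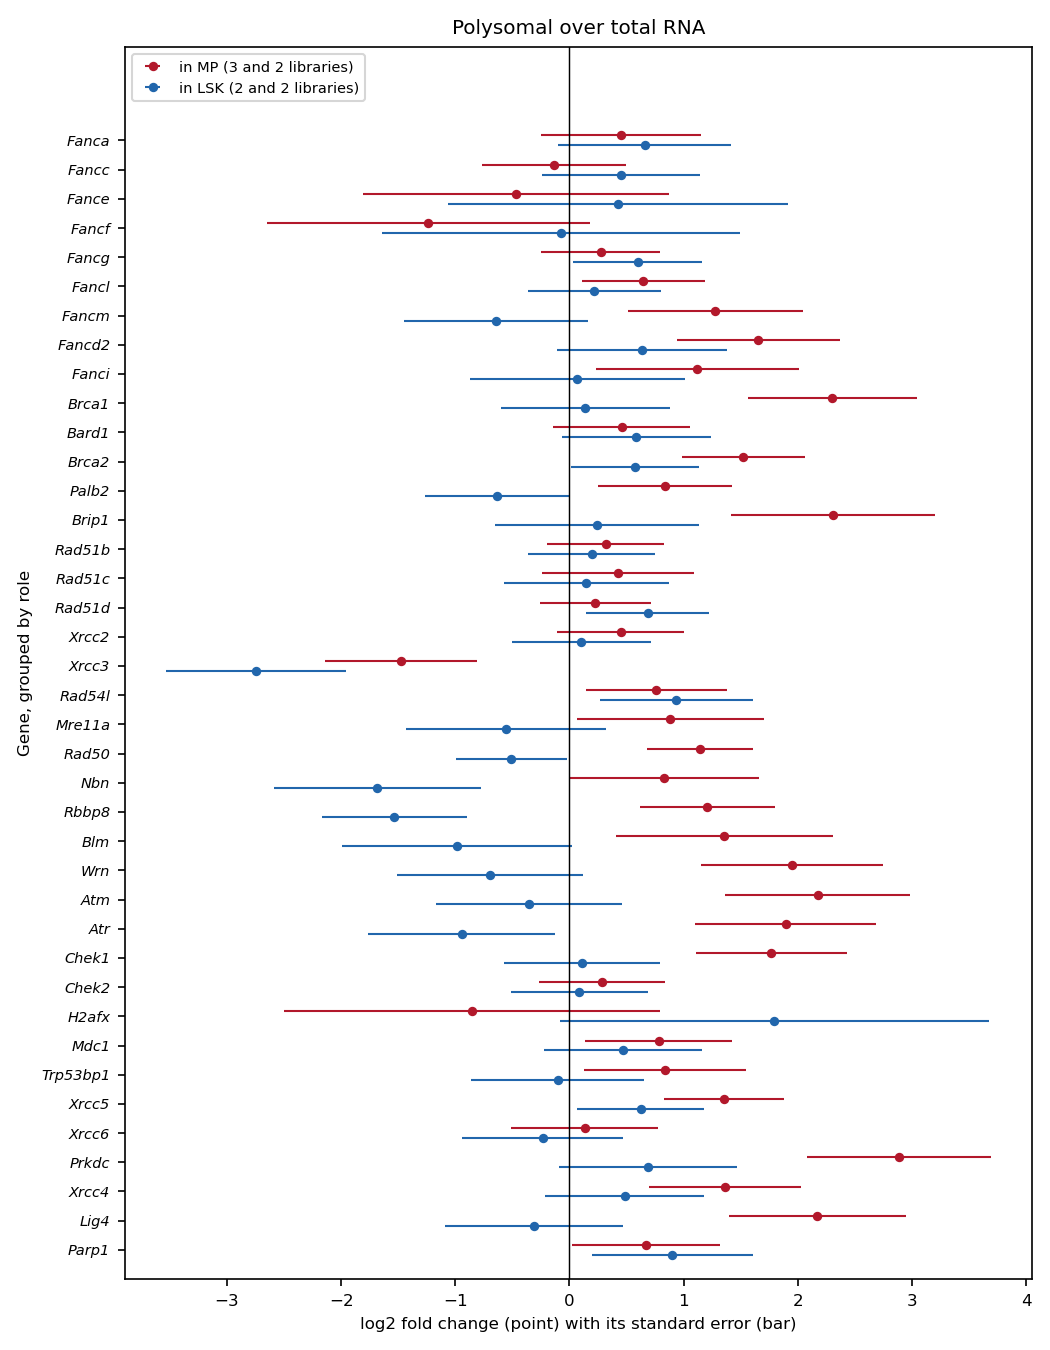
log2 change of polysomal over total RNA (points) with its standard error (bars) for the 39 repair genes in MP (red, 3 and 2 libraries) and LSK (blue, 2 and 2 libraries). In MP 34 of 39 points lie right of 0 and in LSK 24 do, Mre11a, Rad50, Nbn and Rbbp8 lie on opposite sides of 0 in the populations, and Xrcc3 lies left of 0 in both.

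MP over LSK in total RNA asked how the transcript levels of the populations differ. Of the 39 genes 25 were negative, that is lower in MP, against 50.2% of all genes, and their median log2 change was -0.40, against -0.01 for all genes. By edgeR's quasi-likelihood test with Benjamini-Hochberg adjustment, 0 of the 39 passed, against 1.09% of all genes (45 higher and 134 lower). DESeq2 passed 2 of the 39, Rad50 (adjusted p = 0.0382) and Atm (adjusted p = 0.0401). Libraries did not overlap for 1 gene that was higher in MP, Fanca, against 22.8% of all genes. They did not overlap for 11 that were lower, against 28.5%, a share of all 39 of 28.2% (Brca2, Brip1, Rad51b, Rad50, Rbbp8, Atm, Atr, Chek1, Xrcc5, Prkdc and Xrcc4). At an unadjusted p under 0.05 stood 5, all lower, against 12.5% of all genes. The MP total libraries are the same ones that enter the fraction comparison in MP, so their low values for long genes appear in both.

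The shares of lower genes without overlap and at an unadjusted p under 0.05 lay near those of all genes, so the values that follow are descriptions. Rad50 had 40.8 and 32.3 CPM in MP total libraries, against 114 and 89.7 CPM in LSK total libraries. Both MP values lay well under the lower LSK value, and the log2 change was -1.48 (SE 0.50, edgeR quasi-likelihood, Benjamini-Hochberg adjusted p = 0.171). Atm had 9.99 and 7.99 CPM in MP total and 69.0 and 31.0 CPM in LSK total libraries, with a log2 change of -2.47 (SE 0.86, edgeR quasi-likelihood, Benjamini-Hochberg adjusted p = 0.181). All 4 damage kinases were negative (median -1.65), although Chek2 stood at -0.03 with a 95% interval of -1.38 to 1.32. All 4 end-trimming genes were negative (median -1.40), as were 4 of 5 end joining genes (median -1.06). Xrcc4 averaged 5.05 ± 0.58 CPM in MP total and 17.6 ± 1.96 CPM in LSK total RNA (n = 2 each), a log2 change of -1.80 (SE 0.72). The Fanconi core was positive in 5 of 7 genes (median 0.32), with Fanca at 77.6 ± 19.9 CPM in MP and 35.6 ± 35.4 CPM in LSK.

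GC content moved with this comparison too. Across the 39 genes its Spearman correlation with the log2 change was 0.80, against 0.35 across all genes, and that of length was -0.49, against -0.09. Once the trend on GC content was taken out of each library, the median of the 39 genes was -0.14, with the trend on length taken out it was -0.17, and without LSK total 1 it was 0.08, so its sign rests on that library. In contrast to the 39 genes, 53 of the 86 further repair genes (median 0.26) and 25 of the 28 cell cycle genes (median 0.72) were positive, and 0 of the 86 passed by edgeR (5 at an unadjusted p under 0.05). Smc5 had the smallest p of the 86, with 17.3 CPM in MP and 95.4 CPM in LSK (log2 change -2.46, SE 0.60, edgeR quasi-likelihood, Benjamini-Hochberg adjusted p = 0.0797). Its partner Smc6 had 23.5 and 83.9 CPM, and Rif1 25.9 and 99.7 CPM, in the same groups.

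MP over LSK in polysomal RNA leaned the other way. Of the 39 genes 28 were positive, that is higher in MP, against 48.6% of all genes, and their median log2 change was 0.44, against -0.03 for all genes. By edgeR's quasi-likelihood test with Benjamini-Hochberg adjustment, 0 of the 39 passed, against 3.35% of all genes (86 higher and 465 lower), and DESeq2 passed 0 of the 39. At an unadjusted p under 0.05 stood 1, Xrcc3, against 6.09% of all genes in that direction. Libraries did not overlap for 10 genes higher in MP, against 15% of all genes (Fanca, Fancd2, Fanci, Brca1, Palb2, Xrcc2, Xrcc3, Rbbp8, Wrn and Lig4), and for 1 lower in MP, Rad51d, against 17.4%. With no filter on low counts edgeR passed 1558 genes here, among them H2afx, as lower in MP. H2afx had 12.1 and 1039 CPM in LSK polysomal 1 and 2. Its log2 change ran from -4.33 to 3.26 over the alternatives, with the sign kept in 18 of 20. The LSK libraries set the size of the median, which was 1.21 when LSK polysomal 1 was left out and 0.22 when LSK polysomal 2 was.

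Xrcc3 had the smallest p of the 39, with 19.9, 19.5 and 7.87 CPM in MP polysomal libraries and 6.84 and 2.57 CPM in LSK polysomal libraries. The gap between the nearest libraries was narrow, and the log2 change was 1.74 (SE 0.72, edgeR quasi-likelihood, Benjamini-Hochberg adjusted p = 0.241). In total RNA its libraries overlapped between the populations (0.47, 95% interval -1.18 to 2.12). Rbbp8 had 49.0, 29.9 and 35.7 CPM in MP polysomal and 23.0 and 10.9 CPM in LSK polysomal libraries, with a log2 change of 1.17 (SE 0.59, edgeR quasi-likelihood, Benjamini-Hochberg adjusted p = 0.345). The Fanconi ID pair was higher in all 3 MP libraries, Fancd2 by 1.40 (SE 0.71) and Fanci by 1.22 (SE 0.90). Atm and Rad50, which had the smallest p-values in total RNA, stood here at 0.05 (95% interval -1.62 to 1.72) and 0.18 (95% interval -0.82 to 1.18). Xrcc4 was negative in both fractions, at -0.92 (SE 0.63) in polysomal RNA. Of the 86 further repair genes 53 were positive (median 0.30) and 0 passed by edgeR (7 at an unadjusted p under 0.05), with Rad17, the clamp loader of the checkpoint, at 53.9 CPM in MP and 13.2 CPM in LSK. Of the 28 cell cycle genes 19 were positive (median 0.15).

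**Figure D5:**
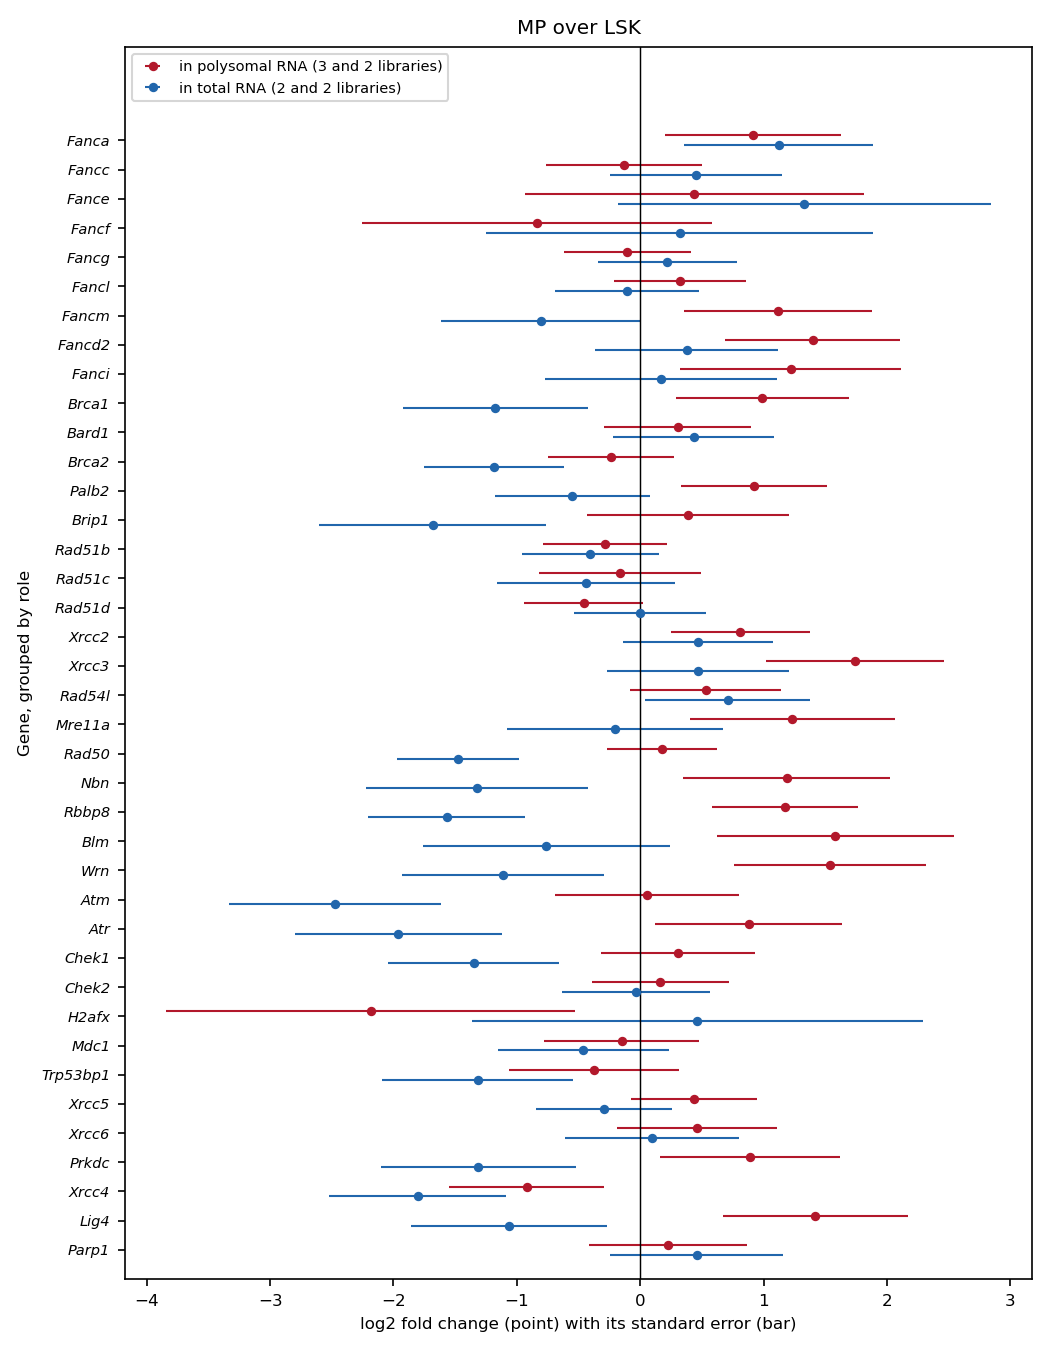
log2 change of MP over LSK (points) with its standard error (bars) for the 39 repair genes in polysomal RNA (red, 3 and 2 libraries) and in total RNA (blue, 2 and 2 libraries). In polysomal RNA 28 points lie right of 0 and in total RNA 14 do, the damage kinases, end-trimming genes and RecQ helicases lie left of 0 in total RNA and right of it in polysomal RNA, and Xrcc4 lies left in both.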

How the data were processed

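The authors deposited raw counts per gene symbol, and normalized log2 values that were used only as an alternative. Per the submitters' processing notes, the tools were STAR, featureCounts, bcl2fastq and DESeq2 and the builds GRCm38 and mm10. Versions, annotation and strandedness are not given in the sources consulted. Groups and library numbers come from the titles. The counts went into edgeR 4.0.16 (R 4.3.3): filterByExpr (minimum count 10, minimum total 15), TMM, and a quasi-likelihood fit with a mean per group over all 9 libraries (residual degrees of freedom 5, prior 4.58). The 5 two-sided comparisons were adjusted by Benjamini-Hochberg over all 16426 genes (threshold 0.05). Alternatives used limma 3.58.1 and DESeq2 1.42.0. The procedure was also run on simulated counts drawn independently for each library. Those counts hold no shifts like the ones seen between libraries of a group, so that run does not bear on them. Lengths and GC content are those of the longest protein-coding transcript in GENCODE M21, or of the longest transcript where a gene has no coding one. The genes, lists and rules for naming (all 39, with values in every library for the 2 smallest p of each comparison) were chosen with earlier results of these data known. Whether equal library numbers pair the libraries is given with the alternatives.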

Additional observations from a re-analysis of the deposited data

Results flagged for a closer look

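Rad50 and Rbbp8 are listed because their libraries separated in opposite directions in the populations, with polysomal above total RNA in MP and below it in LSK. The interaction was 1.65 (SE 0.67) for Rad50 and 2.74 (SE 0.87) for Rbbp8, and by edgeR's quasi-likelihood test with Benjamini-Hochberg adjustment neither passed (adjusted p = 0.877 for both). Opposite separation, of fractions between populations or of populations between fractions, occurred in 2 of 39 repair genes (5.13%) and in 4.26% of all tested genes. The share of the 39 thus lay near that of all genes.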

How the results depend on the processing

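In 21 alternatives, a repair gene passed in 2 of them only. DESeq2 passed 2 in MP over LSK in total RNA (Rad50 and Atm), 1 in LSK polysomal over total RNA (Xrcc3) and 1 in MP (Prkdc, adjusted p = 0.0413). Without a filter on low counts edgeR passed 1, H2afx in MP over LSK polysomal RNA (log2 change -2.16, adjusted p = 0.00764). The sign of that H2afx change held in 18 of 20 alternatives. Counts of all genes passing moved far more. In MP over LSK total RNA they were 328 on library totals alone, 1206 with no filter, 1471 by DESeq2, 0 on the compared groups only, 850 by limma on the deposited values and 347 with the GC trend removed, against 179. In MP over LSK polysomal RNA they were 1558 with no filter, 1624 by DESeq2, 304 on the compared groups and 197 without both LSK libraries numbered 2, against 551. Without both MP libraries numbered 1 these comparisons passed 0 and 0. No filter and DESeq2 passed 547 and 433 in LSK polysomal over total RNA, 22 and 30 in MP and 4 and 1 for the interaction, and limma passed 486 in LSK. Leaving out each library gave 0 to 446 and 0 to 516 genes for MP over LSK in total and polysomal RNA. The median of the 39 genes then ranged from -0.48 to 0.08 in total RNA, 0.22 to 1.21 in polysomal RNA, -0.87 to 0.46 for LSK fractions, 0.82 to 0.99 for MP fractions and 0.48 to 1.83 for the interaction. Library totals alone moved the median of all genes by -0.35, -0.11, -0.38 and -0.14 in these 4 comparisons and by 0.24 for the interaction. Of 12 same-number pairs of libraries, 9 had deviations correlated over 0.1 (range -0.37 to 0.62), and the others all held MP polysomal 2. In a group of 2 libraries the deviations are equal and opposite. Pairs between such groups therefore had to repeat the same value for numbers 1 and 2 (0.46, 0.25 and 0.59) and are not separate evidence. The numbers were not taken as pairs in the results above, since pairing was to rest on every pair being over 0.1. Whether libraries of equal number share a source is not stated in the labels. A replicate block by number passed 570 genes in MP over LSK total RNA, a replicate block within population 1 gene in MP fractions, and neither passed a repair gene. The sign of a gene's change held in every alternative for 31 of 39 genes in MP fractions, 8 in LSK fractions, 16 and 20 in MP over LSK in total and polysomal RNA and 18 for the interaction. The cause of these moves was not tested. The lowest count of a repair gene in a library was 29.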
